A study of Mus musculus with 6 samples.

Results

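The kallikreins of the epidermis are secreted serine proteases that take part in the shedding of the stratum corneum, and Spink5 encodes LEKTI, the inhibitor that holds them in check. The 10 genes described here were 9 kallikreins (Klk5, Klk6, Klk7, Klk8, Klk9, Klk10, Klk11, Klk13 and Klk14) and Spink5, chosen by name, of 19938 genes with a transcript cluster of their own in the deposited table. A transcript cluster is the set of probes that the array assigns to 1 transcript locus, and each of the 10 genes had exactly 1 such cluster. Total RNA came from the dorsal skin of 3 Cbl-b-/- mice, which lack the E3 ubiquitin ligase Cbl-b, and of 3 WT mice of the BL6 strain. All 6 mice had been shaved on the back the day before and had received 80 mJ/cm2 of UVB once, and skin was taken 24 h later. Animals were matched for sex and age, but their ages were not given in the sources used here. Each mouse was hybridized to its own Affymetrix Mouse Gene 1.0 ST array, so that n = 3 mice in each genotype. Whole skin was profiled, with all its cell types. Fewer cells of a type and less RNA per cell therefore cannot be told apart in any value below. Arrays of nonirradiated skin were not analysed here, so the values compare genotypes after UVB and do not measure the response to UVB.

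Kallikreins are made by granular keratinocytes as inactive proenzymes and are released into the spaces between the cells of the stratum corneum. There they activate each other in a cascade and cut the corneodesmosomes, the junctions that hold dead cells together, so that the outermost cells can be shed. LEKTI binds the active proteases, most tightly in the less acid lower layers, and human loss of SPINK5 causes Netherton syndrome, in which the barrier peels off too early.

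The 9 kallikrein genes lie side by side on chromosome 7. In the RefSeq annotation (GRCm38.p6) their order along the chromosome was Klk14, Klk13, Klk12, Klk11, Klk10, Klk9, Klk8, Klk7, Klk6 and Klk5, with Klk12 the only kallikrein between them that is not among the 10 genes. RefSeq promoter windows, which reach from 250 bases before to 50 bases after a transcript start, matched all 9 of them, with 11 windows in total. The 120 bases before the start are shown for 4 genes. Klk13 and Klk6 were the genes whose levels differed most between arrays, while Klk5 and Klk7, the best studied proteases of desquamation, differed less. All 4 are read 5′ to 3′ on the plus strand at chr7:43712447-43712566 (Klk13), chr7:43824424-43824543 (Klk6, the first of its 2 windows), chr7:43842149-43842268 (Klk5) and chr7:43811174-43811293 (Klk7). Capitals mark GGGCGG on either strand, the GC box letters.
Klk13: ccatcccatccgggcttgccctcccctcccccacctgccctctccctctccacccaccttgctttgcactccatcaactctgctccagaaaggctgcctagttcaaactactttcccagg
Klk6: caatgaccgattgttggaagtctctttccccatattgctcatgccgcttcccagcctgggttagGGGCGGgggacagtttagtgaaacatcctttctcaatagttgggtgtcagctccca
Klk5: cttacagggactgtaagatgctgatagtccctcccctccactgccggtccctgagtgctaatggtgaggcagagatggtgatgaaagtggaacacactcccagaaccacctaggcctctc
Klk7: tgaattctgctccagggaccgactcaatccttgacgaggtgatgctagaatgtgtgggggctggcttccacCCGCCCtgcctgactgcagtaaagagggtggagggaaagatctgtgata
GGGCGG stood in 5 of the 11 windows, those of Klk6, Klk7, Klk8 and Klk9, against 35.7% of all 32851 windows. Neither the TATA box letters TATAAA (13.6% of all windows) nor the AP-1 letters TGANTCA (7.81%) stood in any of the 11. TTGCNNAA, the letters of a C/EBP site, stood in 2 windows, both of Klk11 (10.8% of all windows), and CCAAT in 2 windows, of Klk11 and Klk9 (37.4%). Both strands were searched, and no searched motif contains another. A match is a run of letters only, and none of the windows was tested for binding.

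None of the 10 genes met the study's thresholds, which were an unadjusted p under 0.05 and a difference of at least 1.5-fold. Of all 35556 transcript clusters, 1.22% met them in limma, 0.276% with higher and 0.945% with lower values in Cbl-b-/- skin. The methods' per-row test likewise passed none of the 10, against 0.751% of all transcript clusters. Without the fold threshold, no gene of the 10 was at an unadjusted p under 0.05. The share of all transcript clusters there was 6.55% by limma and 6.98% by the per-row test. For none of the 10 did the 3 Cbl-b-/- arrays lie entirely above or below the 3 WT arrays. This happened for 13.5% of all transcript clusters (8.66% above and 4.89% below). At shares of this size, a set of 10 genes would hold few or none, so these counts do not set the 10 apart. Of the 10, 5 had a positive and 5 a negative log2 fold change (Cbl-b-/- minus WT), with a median of 0.0028 against 0.020 over all transcript clusters. A log2 fold change is the difference between genotype means of the RMA values, which the authors deposited on the log2 scale. Whether 1 gene is expressed more than another is not read from these values, because probes differ in brightness.

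**Figure D1:**
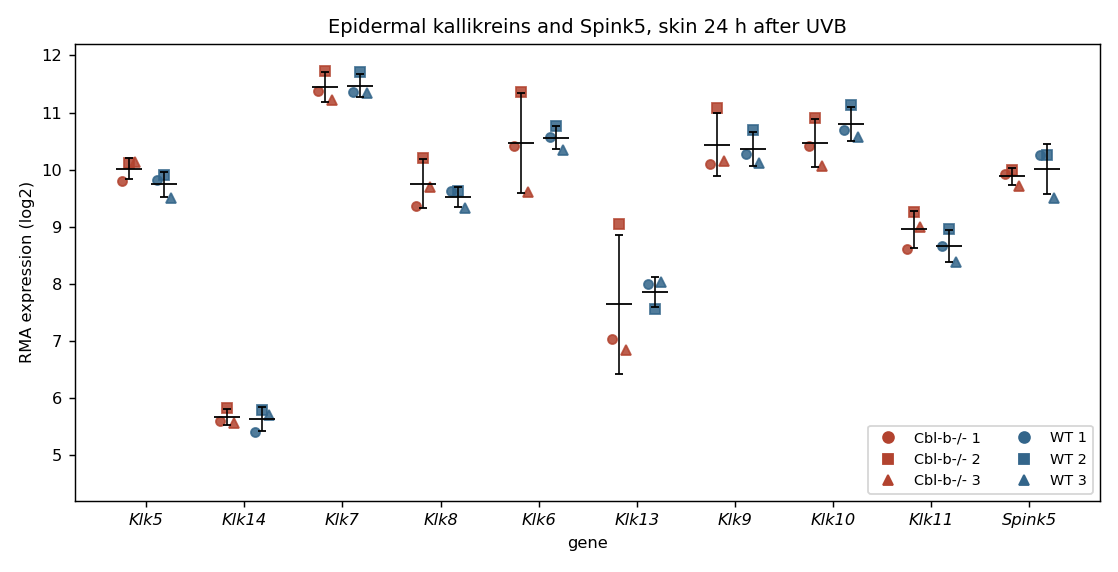
RMA expression (log2, vertical axis) of the 9 kallikreins and Spink5 (horizontal axis), 1 point per mouse, with the 3 Cbl-b-/- arrays left of the 3 WT arrays for each gene. The points of both genotypes overlap for all 10 genes, and Cbl-b-/- array 2 stands far above the other arrays for Klk13.

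KLK5 and KLK14 are the trypsin-like proteases at the start of the cascade. KLK5 can activate itself and then activates KLK7 and KLK14 in human epidermis, and it cuts the corneodesmosome proteins directly. On the log2 RMA scale, Klk5 measured 9.80, 10.12 and 10.13 in Cbl-b-/- skin, against 9.83, 9.90 and 9.50 in WT skin. A pair of Cbl-b-/- arrays lay above all WT arrays, and the other lay between the WT arrays, so the genotypes overlapped. Klk5 averaged 10.02 ± 0.19 in Cbl-b-/- and 9.74 ± 0.21 in WT skin (SD, n = 3 each), with a log2 fold change of 0.28 (SE 0.15, adjusted p = 0.760 from limma). Among the 10 genes it had the lowest p. Its 95% interval ran from 0.951-fold to 1.54-fold.
Klk14, whose human product can activate KLK5 in turn, measured 5.60, 5.83 and 5.57 in Cbl-b-/- skin, against 5.40, 5.79 and 5.70 in WT skin. These levels were only just above the background, taken on each array as the 95th percentile of 1217 olfactory and vomeronasal receptor rows and lying between 5.20 and 5.42. The log2 fold change of Klk14 was 0.04 (SE 0.13, adjusted p = 0.967 from limma), with an interval from 0.824-fold to 1.27-fold. Close to background, RMA values compress differences.

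KLK7, the stratum corneum chymotryptic enzyme, cuts corneodesmosin and desmocollin 1. Klk7 measured 11.38, 11.73 and 11.22 in Cbl-b-/- skin, against 11.37, 11.71 and 11.34 in WT skin. Arrays 2 were high and the others low in both genotypes, and the means were 11.44 ± 0.26 in Cbl-b-/- and 11.47 ± 0.21 in WT skin (SD, n = 3 each). The log2 fold change was −0.03 (SE 0.16, adjusted p = 0.977 from limma), and its interval ran from 0.745-fold to 1.29-fold. Klk7 and Klk14 were the only 2 of the 10 genes whose interval lay within 1.5-fold in both directions, whereas 77.9% of all transcript clusters had such an interval. For the other 8 genes a difference of 1.5-fold in at least 1 direction was within the 95% interval.

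Klk8 encodes neuropsin, a trypsin-like protease of upper keratinocytes and of the hippocampus. It measured 9.35, 10.21 and 9.69 in Cbl-b-/- skin, against 9.62, 9.62 and 9.32 in WT skin. Cbl-b-/- array 2 was high and Cbl-b-/- array 1 was almost as low as the lowest WT array. Its log2 fold change of 0.23 (SE 0.22, adjusted p = 0.849 from limma) was 0.00077 when Cbl-b-/- array 2 was left out. Klk11, which encodes the trypsin-like protease hippostasin, measured 8.62, 9.25 and 8.99 in Cbl-b-/- skin, against 8.65, 8.95 and 8.38 in WT skin. As with Klk8, array 2 was the highest of the Cbl-b-/- arrays. The Klk11 log2 fold change was 0.29 (SE 0.21, adjusted p = 0.803 from limma), with an interval from 0.867-fold to 1.72-fold.

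Klk6 encodes neurosin, a trypsin-like protease first known from brain that keratinocytes also make. It measured 10.42, 11.36 and 9.60 in Cbl-b-/- skin, against 10.56, 10.77 and 10.35 in WT skin. The highest and the lowest of the 6 arrays were both Cbl-b-/-, 1.76 log2 units apart, a range larger than that of 98.4% of all transcript clusters. The WT arrays lay between them. Klk6 averaged 10.46 ± 0.88 in Cbl-b-/- and 10.56 ± 0.21 in WT skin (SD, n = 3 each). Its log2 fold change was −0.10 (SE 0.41, adjusted p = 0.970 from limma) and reversed to 0.33 without Cbl-b-/- array 3.

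Klk13, a kallikrein of stratified epithelia, measured 7.03, 9.05 and 6.84 in Cbl-b-/- skin, against 7.99, 7.56 and 8.03 in WT skin. Here 1 Cbl-b-/- array stood above and the other 2 stood below all WT arrays. The range of 2.20 was larger than that of 99.1% of all transcript clusters, whose median range was 0.40. Klk13 averaged 7.64 ± 1.22 in Cbl-b-/- and 7.86 ± 0.26 in WT skin (SD, n = 3 each), with a log2 fold change of −0.22 (SE 0.57, adjusted p = 0.949 from limma). The 95% interval reached from 0.332-fold to 2.21-fold. Without Cbl-b-/- array 2, the log2 fold change of Klk13 was −0.92 (SE 0.17, adjusted p = 0.490 from limma), which met the study's thresholds, and without Cbl-b-/- array 3 it was 0.18.

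The substrates of the proteases encoded by Klk9 and Klk10 are less well known. Klk9 measured 10.10, 11.07 and 10.15 in Cbl-b-/- skin, against 10.27, 10.70 and 10.12 in WT skin. Array 2 was again the highest within each genotype. The Klk9 log2 fold change was 0.07 (SE 0.29, adjusted p = 0.969 from limma), and it was −0.24 without Cbl-b-/- array 2. Klk10 measured 10.42, 10.90 and 10.06 in Cbl-b-/- skin, against 10.70, 11.12 and 10.57 in WT skin. Its Cbl-b-/- mean was the lower one, with a log2 fold change of −0.34 (SE 0.24, adjusted p = 0.804 from limma) and an interval from 0.529-fold to 1.18-fold. Cbl-b-/- array 2 nevertheless exceeded a pair of the WT arrays, so the groups overlapped.

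Spink5, the inhibitor, measured 9.93, 10.001 and 9.72 in Cbl-b-/- skin, against 10.25, 10.26 and 9.50 in WT skin. Both the highest and the lowest array were WT, and all Cbl-b-/- arrays lay between them. Spink5 averaged 9.88 ± 0.15 in Cbl-b-/- and 10.01 ± 0.44 in WT skin (SD, n = 3 each). The log2 fold change was −0.12 (SE 0.22, adjusted p = 0.922 from limma), and without WT array 3 it was −0.38 (adjusted p = 0.633 from limma), below the 1.5-fold threshold.

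**Figure D2:**
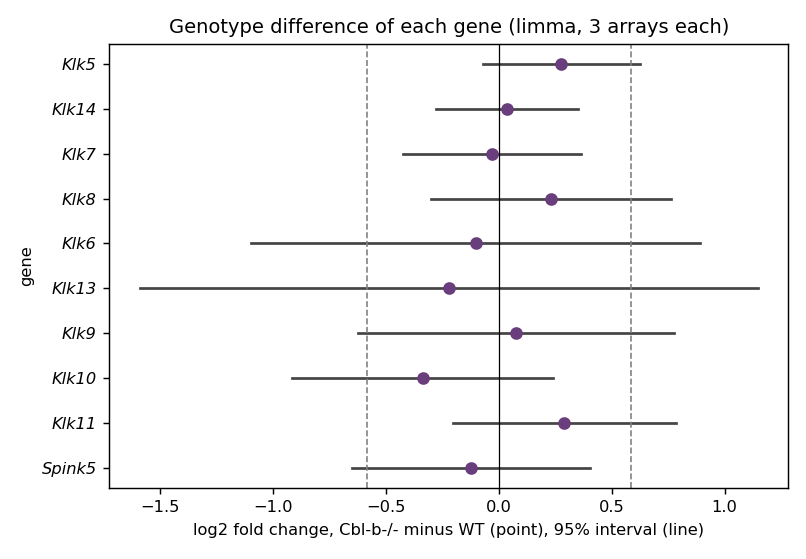
Log2 fold change (Cbl-b-/- minus WT, horizontal axis) of each gene (vertical axis) from limma, with the 95% interval as a line (n = 3 arrays per genotype). All 10 intervals include 0, from the narrow line of Klk14 (−0.28 to 0.35) to the wide one of Klk13 (−1.59 to 1.15).

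The highest array was most often that of the same mouse. Cbl-b-/- array 2 was the highest of the 6 arrays for 7 of the 10 genes and above the mean of the gene for all 10, whereas it was the highest for 18.2% of all transcript clusters. Cbl-b-/- array 3 was the lowest for 4 of them, and so was WT array 3. Averaged over the 9 kallikreins and centred on the mean of each gene, the Cbl-b-/- arrays stood at −0.22, 0.53 and −0.27, against −0.04, 0.16 and −0.16 for the WT arrays. Within its genotype, Cbl-b-/- array 2 was the highest for 9 of the 10 genes, and so was WT array 2 among the WT arrays. WT array 2 led WT array 1 only narrowly for Klk8 (9.624 against 9.619) and Spink5 (10.263 against 10.254). The matching share of all transcript clusters within a genotype was not counted. Across arrays, the gene whose centred values were nearest to this mean kallikrein profile was Medag (root-mean-square difference 0.042 log2 units over 6 arrays), followed by Abcg4, a sterol transporter (0.058), Sfn, the 14-3-3 sigma protein of keratinocytes (0.058), Bhlhe40, a circadian repressor (0.059), and Herc4, a ubiquitin ligase (0.060). These 5 were the closest of 12350 candidates with 1 symbol and a mean above the median of all transcript clusters, and the profile itself had a root-mean-square size of 0.28.

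**Figure D3:**
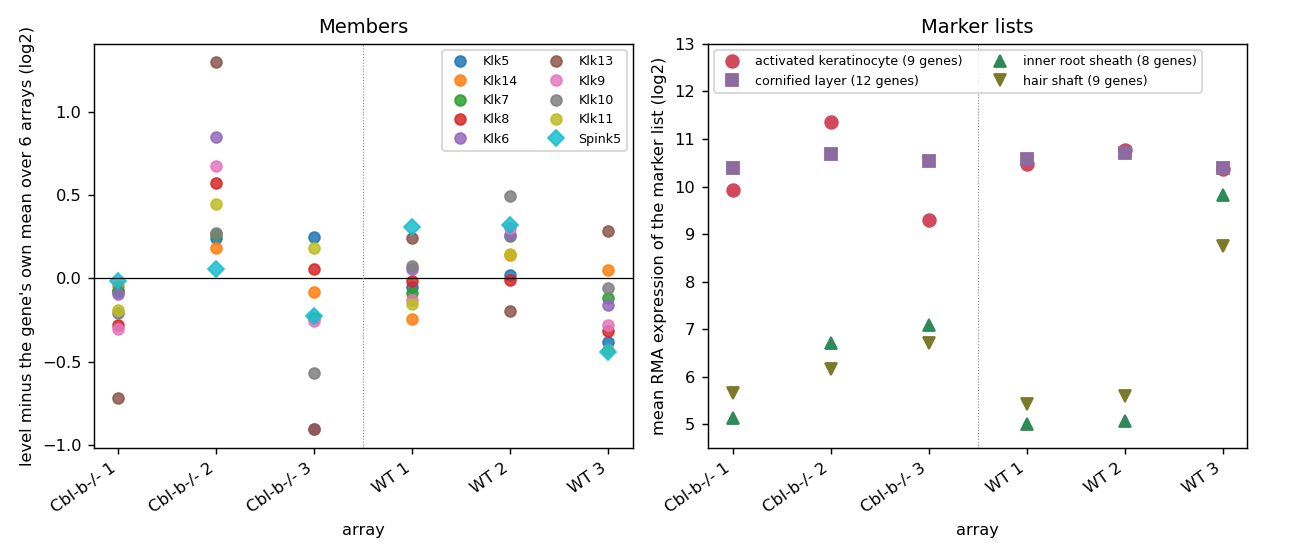
Left, level of each of the 10 genes minus its own mean over 6 arrays (log2, vertical axis) by array (horizontal axis), Cbl-b-/- before WT. Right, mean RMA expression (log2) of marker lists on the same arrays. Klk13 and Klk6 reach 1.30 and 0.85 above their means in Cbl-b-/- array 2, where the activated keratinocyte markers are also highest (11.35).

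Markers of other states and cell types also differed between these arrays, but not all in the same pattern. The 9 activated keratinocyte markers, such as the keratin Krt16, had mean levels of 9.92, 11.35 and 9.28 in the Cbl-b-/- arrays, against 10.47, 10.76 and 10.38 in the WT arrays. In 8 of those 9 genes Cbl-b-/- array 2 was the highest array, and in 7 Cbl-b-/- array 3 was the lowest. Krt16 itself ran 9.01, 10.91 and 7.50 in Cbl-b-/- skin, against 9.56, 10.25 and 9.06 in WT skin. All 9 had a negative log2 fold change, with a median of −0.46, and none met the study's thresholds (1.22% of all transcript clusters did). Their part in the array differences of the kallikreins was not tested. The 6 leukocyte markers had mean levels of 7.97, 8.52 and 7.82 in Cbl-b-/- skin, against 8.43, 8.03 and 7.84 in WT skin. Cbl-b-/- array 2 was the highest for 3 of those 6 and the lowest for 1. The same Cbl-b-/- array 2 had the lowest level of all 6 skeletal muscle markers (mean levels 10.64, 9.36 and 10.51 in Cbl-b-/- skin, against 10.92, 10.66 and 9.93 in WT skin) and of 3 of 5 adipocyte markers. WT array 3, the lowest array for Klk5, Klk8, Klk11 and Spink5, carried all 8 inner root sheath markers at their highest, with mean levels of 5.13, 6.70 and 7.09 in Cbl-b-/- skin, against 4.99, 5.06 and 9.83 in WT skin. It also had the lowest level of all 4 spinous layer markers measured and of 5 of 7 basal keratinocyte markers. Of those 7 basal markers, Cbl-b-/- array 2 was the highest for 5 and the lowest for 1. The 12 measured cornified layer markers were above background on all 6 arrays, as was every one of the 10 genes. RNA of the outer epidermis was therefore present in each sample. Mean levels of these 12 markers were 10.39, 10.69 and 10.54 in Cbl-b-/- skin, against 10.58, 10.71 and 10.38 in WT skin. They did not move as 1 group, since Cbl-b-/- array 2 was the highest for 4 of the 12 and the lowest for 2. How much of the spread of the kallikreins comes with the makeup of the tissue was not tested.

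Within each array the level of Spink5 was subtracted from that of each kallikrein, on the log2 scale, and the mRNA difference was compared between genotypes. Its sign and size within an array depend on the brightness of the probes of both genes, so only the comparison between arrays can be read. For Klk5 this difference was −0.13, 0.12 and 0.41 in Cbl-b-/- skin, against −0.43, −0.36 and −0.0023 in WT skin. Cbl-b-/- arrays 2 and 3 lay above all 3 WT arrays and Cbl-b-/- array 1 above a pair of them, a difference of means of 0.40. An exact two-sided permutation test over the 20 possible splits of the arrays, which cannot give a p under 0.1 with 3 arrays each, gave p = 0.2 for Klk5 and p = 0.2 for Klk8 (difference 0.35), the lowest of the 9 kallikreins. Klk11 had the largest difference at 0.41 (exact p = 0.3), and Klk10 had a negative one at −0.21 (exact p = 0.5). Adjusted over the 9 tests, the exact p-values were 0.9 or 1. The genotypes overlapped in all 9 kallikreins. Between genotypes the difference was positive in 7 of the 9 and negative in 2, but all 9 contain the same Spink5 values, whose log2 fold change of −0.12 raises each of them by that amount. Before subtraction, 5 of the 9 kallikreins had a positive log2 fold change, and Klk6 and Klk7 were those that changed sign. The log2 fold change of Spink5 was −0.00017 without WT array 1 and 0.0040 without WT array 2.

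**Figure D4:**
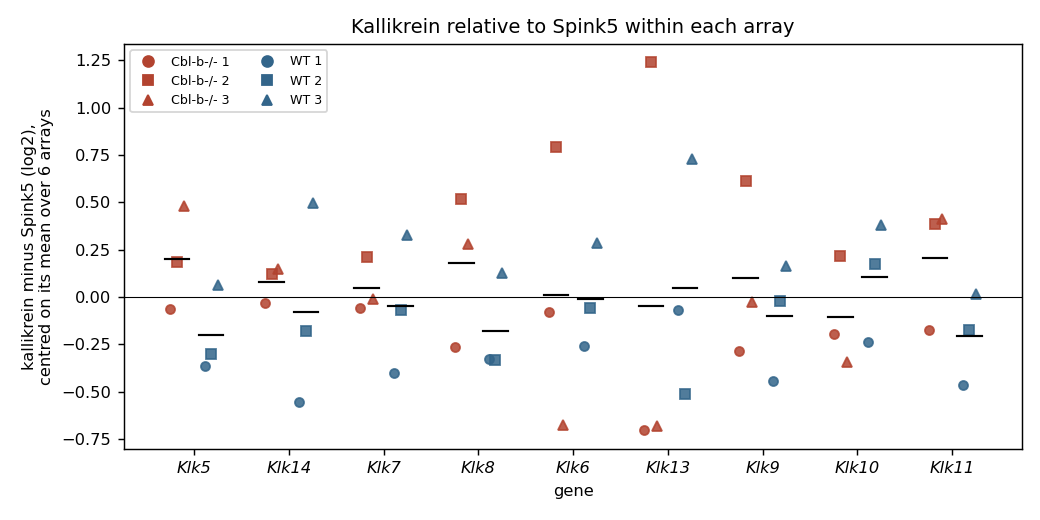
Kallikrein minus Spink5 within each array, centred on its mean over 6 arrays (log2, vertical axis), for each kallikrein (horizontal axis), with the 3 Cbl-b-/- points left of the 3 WT points. The genotypes overlap for all 9 kallikreins, and the widest spread is that of Klk13.

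The other genes of the pathway were looked up in 5 lists, and none of their members met the study's thresholds, against 1.22% of all transcript clusters. At that share, lists this short would hold few or none. Of the 10 proteases listed as activators of proenzymes, which hold the membrane protease matriptase (St14) and its partner prostasin (Prss8), all 10 were measured, with a median log2 fold change of 0.02. Only Plau, which encodes urokinase, the activator of plasminogen, reached an unadjusted p under 0.05 among them. In limma 6.55% of all transcript clusters did so. Plau measured 7.84, 7.92 and 7.69 in Cbl-b-/- skin, against 7.52, 7.29 and 7.12 in WT skin. Every Cbl-b-/- array was above every WT array, as for 8.66% of all transcript clusters. Its log2 fold change was 0.51 (SE 0.13, adjusted p = 0.685 from limma), and without WT array 1 it was 0.61 and met the study's thresholds. St14 had a log2 fold change of −0.01 and Prss8 one of 0.01.

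Among the 14 other protease inhibitors, all measured, the median log2 fold change was −0.04. Serpina3n, a serpin of the antichymotrypsin family, measured 12.16, 11.93 and 11.82 in Cbl-b-/- skin, against 12.56, 12.43 and 12.11 in WT skin. The genotypes overlapped, and the log2 fold change was −0.40 (SE 0.15, adjusted p = 0.749 from limma). Serpina3n was the only inhibitor with an unadjusted p under 0.05 in limma, against 6.55% of all transcript clusters. In the methods' per-row test 0 of the 14 were, against 6.98%. Wfdc12, a small whey acidic protein-type inhibitor, had a log2 fold change of −0.39, and without Cbl-b-/- array 2 its −0.68 met the study's thresholds.

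Klk12 and Klk4, of the 12 other kallikreins measured among 17 listed, were the only 2 above background on at least 3 arrays. Klk4 encodes the protease that clears enamel matrix in developing teeth. It measured 6.10, 5.94 and 5.89 in Cbl-b-/- skin, against 5.56, 5.66 and 5.76 in WT skin. All Cbl-b-/- arrays were the higher, as for 8.66% of all transcript clusters, and Klk4 had the lowest p of the 12. The WT levels were only just above the background, which lay between 5.20 and 5.42. The Klk4 log2 fold change of 0.32 (SE 0.10, adjusted p = 0.723 from limma) stayed short of 1.5-fold. The median of the 12 was 0.05, and neighbouring kallikreins share sequence, so probes for 1 may also bind another.

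Of the corneodesmosome proteins that kallikreins cut, 3 of 5 listed had a row of their own. Cdsn, which encodes corneodesmosin, had a log2 fold change of 0.07 and the desmoglein Dsg1b one of 0.03, while the row of Dsg1c alone (0.08) was below background. A row shared by Dsg1a, Dsg1b and Dsg1c was well above background. It measured 11.45, 11.58 and 11.46 in Cbl-b-/- skin, against 11.43, 11.48 and 11.14 in WT skin (log2 fold change 0.15, SE 0.11). Among the 5 measured of 7 listed other targets and mediators, the median was −0.10. Tslp and Il1b, cytokine genes of stressed keratinocytes and leukocytes, had −0.13 each. Their spread was wide, with an SE of 0.46 and a range of 1.90 log2 units for Tslp and 0.53 and 2.16 for Il1b. Elane, the neutrophil elastase gene, had 0.27 (SE 0.11, adjusted p = 0.749 from limma) and was above background on only 3 arrays.

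**Figure D5:**
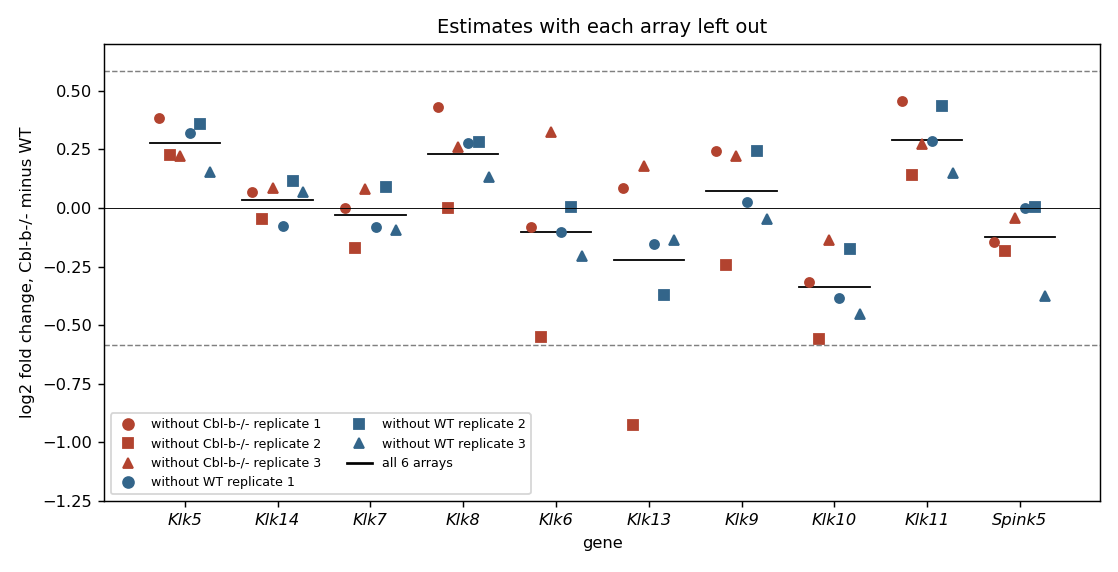
Log2 fold change (Cbl-b-/- minus WT, vertical axis) of each of the 10 genes (horizontal axis), with all 6 arrays (horizontal line) and with each array left out in turn (points). Klk13 spans the widest range, −0.92 to 0.18. Klk10 stays below 0 in all 6 settings (−0.56 to −0.14). Klk5 (0.16 to 0.39), Klk8 (0.00077 to 0.43) and Klk11 (0.14 to 0.46) stay above 0.

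Cblb, the deleted gene, was checked in every sample. It measured 8.61, 8.69 and 8.61 in Cbl-b-/- skin, against 9.90, 9.66 and 9.72 in WT skin. The log2 fold change was −1.12 (SE 0.09, adjusted p = 0.0782 from limma), a direction that matches the labels. The Cbl-b-/- signal was 0.459-fold of WT and still above background. The source of the remaining signal was not tested. Arrays correlated at 0.980 to 0.993 across transcript clusters and their medians lay between 6.30 and 6.34. After Benjamini-Hochberg adjustment over all transcript clusters, 1 of 35556 (0.00281%) had an adjusted p under 0.05, and it was not among the genes named here.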

How the data were processed

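The authors hybridized total RNA to Affymetrix Mouse Gene 1.0 ST arrays and deposited log2 expression values, normalized by the robust multichip average (RMA), 1 per array for 35556 transcript clusters. Per the labels, Affymetrix Expression Console and Partek 6.5 were used, while the methods name another Partek version. Of the transcript clusters, 21789 carry 1 symbol in the platform annotation, 1621 several and 12146 none. Only those with 1 symbol were named, apart from the row shared by Dsg1a, Dsg1b and Dsg1c. The values were used as deposited. The genotypes were compared with limma 3.58.1 (R 4.3.3, lmFit and eBayes, Cbl-b-/- minus WT, 3 arrays each, no covariates), with Benjamini-Hochberg adjustment over all transcript clusters. The study's p, under 0.05, was read as unadjusted. The methods' per-row test was run beside it. Precision is limited by the number of arrays. The table holds no detection calls, so a level above the 95th percentile of olfactory and vomeronasal receptor rows was taken as above background. The scripts were tested on simulated data. All 10 genes were named, and from each list the gene with the lowest p. Klk12, St14, Prss8, Wfdc12, Cdsn, Dsg1b, Tslp, Il1b, Krt16 and the shared Dsg1a, Dsg1b and Dsg1c row were named after their values were seen. The genes, lists and tests were chosen with earlier results of these data known. Alternatives were another variance prior, array weights, cyclic loess, median centring, a background filter, rows with 1 symbol, a replicate block and leaving out each array.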

Additional observations from a re-analysis of the deposited data

How the results depend on the processing

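No gene of the 10 met the study's thresholds under any alternative other than leaving out an array. There the count ran from 0 to 1 (Klk13 without Cbl-b-/- array 2, where 790 of all 35556 transcript clusters met them). The count at an unadjusted p under 0.05, which was 0, became 1 with the replicate number as a block (Klk10, log2 fold change −0.34). It ran from 0 to 2 when arrays were left out. Klk5 reached that p without Cbl-b-/- array 1, Klk10 and Klk13 without Cbl-b-/- array 2, and Spink5 without WT array 3. The share of all transcript clusters at that p was not counted under these alternatives, so the counts cannot be set against it. Whether mice of the same replicate number were handled together is not given in the sources used here. Deviations of same-numbered arrays correlated at 0.233, 0.092 and 0.247, and WT array 2 correlated better with Cbl-b-/- array 1 (0.232) than with its own number. The block gave 453 transcript clusters past the thresholds against 434 without it.

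Over all transcript clusters, the 434 past the thresholds became 267 in the methods' per-row test, 251 with the background filter (23781 rows), 111 with 1 symbol (21789 rows) and 428 to 790 with an array left out, 790 being without Cbl-b-/- array 2. The 1 at an adjusted p under 0.05 became 2 in the methods' test, 12 with array weights, 0 with 1 symbol and 1 to 2 with an array left out. The activators and the inhibitors past the thresholds each ran from 0 to 1. These were Plau without WT array 1, where 553 of all 35556 transcript clusters passed, and Wfdc12 without Cbl-b-/- array 2.

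For single genes, 16 log2 fold changes had the opposite sign under an alternative. Array weights gave −0.12 for Klk9 and −0.017 for Klk14, and cyclic loess −0.021 for Klk14. With an array left out, log2 fold changes ran from −0.55 to 0.33 for Klk6, −0.17 to 0.090 for Klk7, −0.24 to 0.25 for Klk9, −0.92 to 0.18 for Klk13, −0.079 to 0.11 for Klk14, −0.38 to 0.0040 for Spink5 and −0.028 to 0.14 for Dsg1c. The cause was not tested. Of the other values of single genes, 205 kept direction and side of the threshold, and Klk13 and Plau passed it once each. The median over the 10 genes ran from −0.18 to 0.20. A row of second highest mean gave no value, since no listed gene has several rows. Dsg1c gave none under the background filter.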
